A study of Mus musculus with 11 samples.

Results

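The corticosteroid receptors and 8 genes known to respond to glucocorticoids were examined in hippocampal RNA-seq counts from the adult offspring of dams that had received a control or a folic acid (FA)-supplemented diet before mating. The members were taken by symbol: the glucocorticoid receptor gene Nr3c1, the mineralocorticoid receptor gene Nr3c2, and Fkbp5, Sgk1, Tsc22d3, Zbtb16, Plin4, Pdk4, Cdkn1a and Errfi1. All 10 were found among the 38293 genes of the count tables, and all 10 were among the 20589 genes that had at least 10 counts over the 11 mice and were tested. All mice were wildtype F1 hybrids (129S6/SvEv x C57BL/6J), 14 weeks old, and the whole hippocampus of each was sequenced. Dams of the CD group received 2.3 mg FA per kg diet and dams of the FD group 40 mg FA per kg diet, and every dam was given control diet from mating onwards. There were 3 CD males, 3 CD females, 2 FD males and 3 FD females. The labels do not say which mice shared a litter, so mice may not be fully independent, and p-values measure the spread between these mice. Corticosterone was not measured in the files used here.

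Corticosterone, the main glucocorticoid of the mouse, crosses into cells and binds to both receptors, of which the mineralocorticoid receptor has the higher affinity and is abundant in the hippocampus. Unbound receptor is held in the cytoplasm by heat shock protein complexes, and bound receptor enters the nucleus and acts on target genes, in part through glucocorticoid response elements in DNA. The hippocampus expresses both receptors and takes part in the feedback control of the hypothalamic-pituitary-adrenal axis. Because transcripts such as Fkbp5, Sgk1 and Tsc22d3 rise after glucocorticoid exposure, they are widely used as a readout of receptor activity.

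Total counts on genes ranged from 11737554 to 44447006 per mouse, so that 3 counts, taken as the floor of detection, corresponded to 0.0675 to 0.256 CPM (counts scaled to one common library size). No member was near this floor, and the lowest count of any member in any mouse was 12, for Plin4. Reads outside annotated genes made up 8.49% to 13.1% of the reads counted either to a gene or to none. Their share was 12.02% ± 0.947 (SD, n = 5) in males and 10.5% ± 1.35 (SD, n = 6) in females. The summed level of 8 markers of pyramidal and granule neurons was 9169 to 10830 CPM (lowest and highest mouse), and no neuronal marker was at 0 in any mouse. This sum does not tell hippocampus from other tissue rich in such neurons. Markers of choroid plexus epithelium summed to 34.6 to 86.6 CPM in CD and 30.2 to 43.2 CPM in FD mice. Those of neighbouring thalamus and striatum summed to 83.6 to 103.8 CPM in CD and 95.1 to 110.8 CPM in FD mice. The library of CD female 1 stood apart from most of its group, with a chi-square per degree of freedom of 6.98 to 30.2 against the other CD mice, which gave 4.51 to 16.3 among themselves. Without it the genes that differed between the sexes fell from 1257 to 47, within the range of 18 to 3244 found when any single mouse was left out.

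To show what a response element looks like near a member, the promoters of the members were searched in RefSeq windows of 300 bases on GRCm38.p6, which run from 250 bases before to 50 bases after an annotated start. Windows were found for 8 of the 10 members, 17 windows in all, and the other two members are Nr3c1 and Zbtb16. The search used the consensus element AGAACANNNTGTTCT, which reads the same on both strands, and the hexamer AGAACA on either strand, which forms each arm of the element. The full element was found in 1 window of the members. This is 1 of the 6 windows, at different annotated starts, of Sgk1, the serum- and glucocorticoid-regulated kinase. It is shown as the only full match. Sgk1 is also one of the 2 members past the threshold between the sexes (described further on), and a link of the element with that difference was not tested. The window lies at chr10:21993640-21993939 on the plus strand, and capitals mark each hexamer:
Sgk1: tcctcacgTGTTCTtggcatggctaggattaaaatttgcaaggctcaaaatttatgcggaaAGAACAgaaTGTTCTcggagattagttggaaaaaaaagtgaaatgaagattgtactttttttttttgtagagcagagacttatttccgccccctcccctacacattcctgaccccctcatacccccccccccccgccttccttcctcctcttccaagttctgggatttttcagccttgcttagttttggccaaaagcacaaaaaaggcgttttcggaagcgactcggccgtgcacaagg
The element occupied chr10:21993701-21993715, from 189 to 175 bases before the start of that transcript. Of 32851 promoter windows of all genes, 3 held the full element, which is 0.00913%. The hexamer alone was common, in 19.0% of all windows and in 4 of the 17 windows of the members, of which 3 belong to Sgk1 and 1 to Tsc22d3. A match is a description of the sequence, and the count tables hold no measurement of receptor binding. Only exact matches in these windows were searched. Elements with other bases or outside the windows were not looked for in any member.

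The genes differed widely in level. Per kb of exon, Nr3c2 was the most abundant member, with 42.8 ± 2.65 CPM per kb (SD, n = 11), and its range did not overlap with that of the next gene, Sgk1 (17.3 ± 3.86 CPM per kb). Nr3c1 followed with 15.9 ± 1.25, Errfi1 with 14.1 ± 1.79, Zbtb16 with 13.4 ± 2.10 and Tsc22d3 with 11.95 ± 1.56 CPM per kb, and the ranges of neighbours from Sgk1 to Tsc22d3 overlapped. Fkbp5 had 7.07 ± 0.856, Pdk4 4.45 ± 0.558, Cdkn1a 1.57 ± 0.316 and Plin4 0.325 ± 0.145 CPM per kb. On this scale each of these 4 was set apart from the gene above it, with no overlap between the ranges. Exon lengths were those of GENCODE M21, which need not be the annotation used for counting. They join all annotated exons of a gene, so part of the order depends on this divisor. In CPM without it, Fkbp5 (mean 67.0) lay above Tsc22d3 (51.9) and Errfi1 (50.5) and below Zbtb16 (70.9). Likewise, Nr3c1 (121.9) lay above Sgk1 (85.0). The library strand is not stated, and 3 members share exon sequence with a gene on the opposite strand: Nr3c2 over 3.82% of its exon length, Cdkn1a over 7.68% and Plin4 over 0.29%. Between mice, the receptors varied least, with coefficients of variation of 6.20% for Nr3c2 and 7.90% for Nr3c1. Plin4 varied most, with 44.5%, followed by Sgk1 with 22.3%.

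The first question was whether maternal FA supplementation before conception was accompanied by a change in the corticosteroid receptors of the offspring. Neither receptor differed between the diet groups beyond the spread between mice. Nr3c1 encodes the glucocorticoid receptor. In CD mice its level was 104.7 CPM at the lowest, 122.5 at the median and 134.0 at the highest. The FD mice had 130.5, 123.0, 122.8, 125.3 and 104.8 CPM (female 1, male 1, female 2, male 2 and female 3). The groups overlapped over nearly their whole range, and the lowest value of each was that of female 3. The log2 fold change, FD minus CD, was -0.01 (SE 0.07), with a 95% confidence interval of 0.899 to 1.09 for the fold (edgeR quasi-likelihood test with Benjamini-Hochberg adjustment, adjusted p = 1).

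Nr3c2 encodes the mineralocorticoid receptor. It ranged in CD mice from 251.0 CPM through a median of 282.5 to 300.4 CPM. In the FD mice, in the same order as above, its level was 264.2, 304.2, 257.6, 275.9 and 273.1 CPM. The highest mouse of the 11, FD male 1, lay only slightly above the highest CD mouse, and the groups overlapped. For this receptor the log2 fold change was -0.02 (SE 0.06), and the interval of the fold was 0.908 to 1.07 (edgeR, adjusted p = 1).

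**Figure D1:**
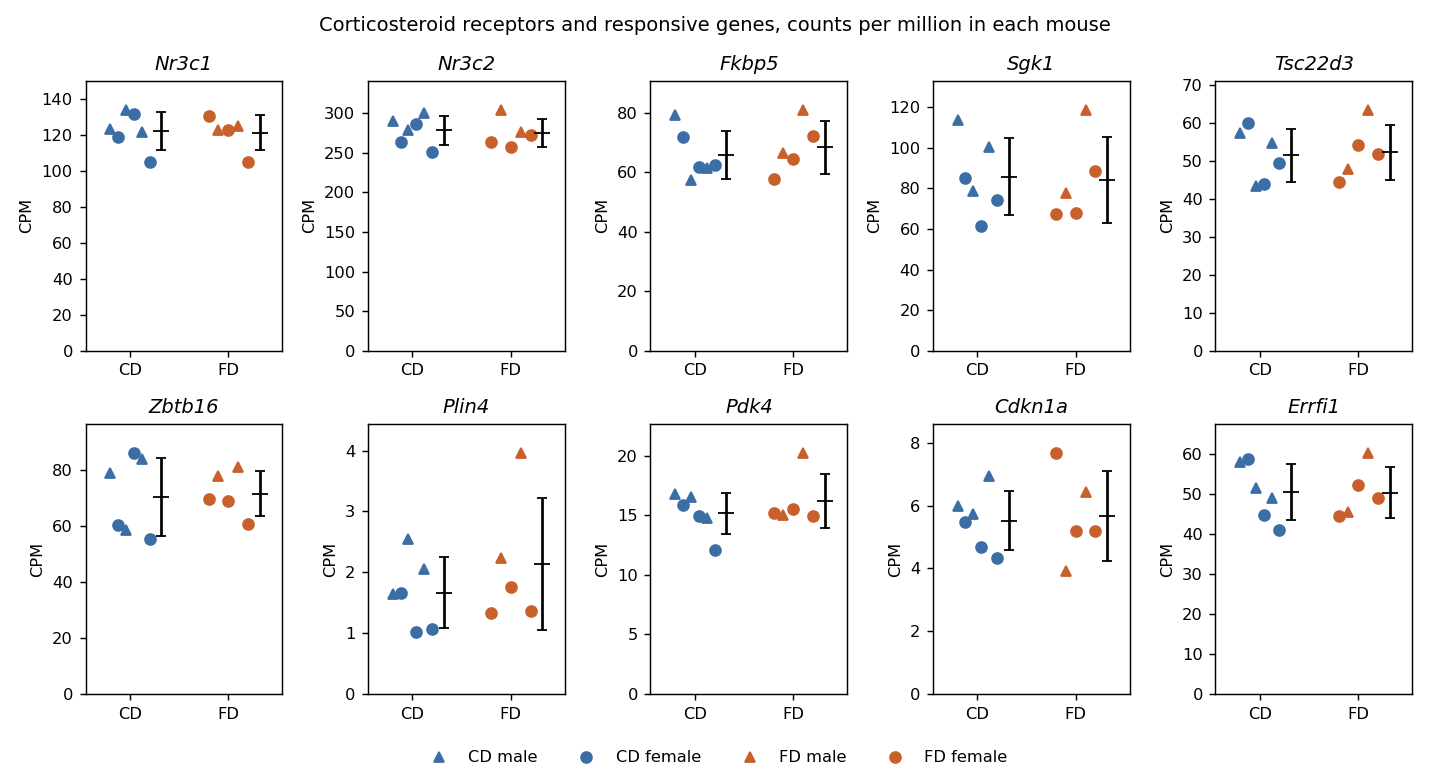
Level of each of the 10 genes in CPM (y axis, from 0) in the 6 CD and 5 FD mice, with triangles for males and circles for females. Black bars give the mean ± SD of each group, and the groups overlap for every gene, while FD male 2 is the highest mouse for 6 of the 10.

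The balance of the receptors is often expressed as the ratio of the mineralocorticoid to the glucocorticoid receptor, and it was computed from the 2 transcripts in each mouse. In CD mice the ratio of Nr3c2 to Nr3c1 was 2.35, 2.08 and 2.47 in males 1, 2 and 3 and 2.22, 2.17 and 2.396 in females 1, 2 and 3. In the FD group, females 1, 2 and 3 had ratios of 2.02, 2.10 and 2.60, and males 1 and 2 had 2.47 and 2.20. All 11 mice thus had more Nr3c2 than Nr3c1 reads, and the lowest and the highest ratio both came from FD females. On the log2 scale, the ratio was 1.19 ± 0.09 (SD, n = 6) in CD and 1.18 ± 0.16 (SD, n = 5) in FD mice, a difference of -0.01 (two-sided exact permutation test, p = 0.944, where the smallest possible p is 0.00216). The sign of this difference turned without CD male 1 (0.0034), CD male 3 (0.018), CD female 3 (0.0088), FD female 1 (0.036), FD female 2 (0.023) or FD male 2 (0.0053). Females and males differed by -0.04 on the same scale, with 1.17 ± 0.13 (SD, n = 6) in females and 1.21 ± 0.11 (SD, n = 5) in males (exact permutation test, p = 0.576).

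None of the 8 responsive genes passed the threshold of an adjusted p below 0.1 for diet. With the receptors, 0 of the 10 members passed it. In all genes tested, 14 of 20589 passed it, which is 0.068%, all of them higher in FD mice. Without adjustment, 0 of the 10 members and 534 of the 20589 genes had a p under 0.05, and DESeq2 also called 0 members. The groups overlapped for all 10 members, and 0.505% of all genes had groups that did not overlap. The median log2 fold change over the members was 0.02, against -0.00405 over all genes tested.

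Fkbp5 encodes a co-chaperone that lowers the affinity of the glucocorticoid receptor for its ligand and is itself induced by the receptor. Its level in CD mice was 57.6 CPM at the lowest, 62.2 at the median and 79.3 at the highest. In the FD mice, in the same order as for the receptors, the levels were 57.6, 66.7, 64.4, 81.0 and 72.2 CPM. The top 2 values came from a male of each group, CD male 1 and FD male 2. FD minus CD gave a log2 fold change of 0.05 (SE 0.09), with an interval of the fold of 0.909 to 1.18 (edgeR, adjusted p = 1).

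Sgk1 encodes a kinase that acts on ion channels and transporters. In CD mice its lowest, median and highest levels were 61.5, 82.0 and 114.0 CPM. In FD mice, in the order given for Fkbp5, its levels were 67.4, 77.5, 68.1, 118.7 and 88.6 CPM. High and low values occurred in both groups, and males made up the highest 3 mice. Its log2 fold change was -0.04 (SE 0.15), with an interval of 0.780 to 1.21 (edgeR, adjusted p = 1).

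Tsc22d3 encodes GILZ, a leucine zipper protein that mediates part of the anti-inflammatory action of glucocorticoids. It was at 43.3, 52.1 and 60.1 CPM in the lowest, median and highest CD mouse. The FD mice had 44.5, 47.9, 54.3, 63.5 and 51.8 CPM. The groups covered almost the same range, and the log2 fold change was 0.01 (SE 0.10).

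Zbtb16 encodes the transcription factor PLZF. Its CD levels were 55.1, 69.5 and 85.9 CPM (lowest, median, highest), and its FD levels 69.4, 77.8, 68.7, 80.9 and 60.5 CPM. All FD values lay inside the CD range. Its log2 fold change was 0.02 (SE 0.11).

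Plin4 encodes a protein of the lipid droplet coat, and it was the least abundant member. In CD mice it was at 1.02, 1.66 and 2.54 CPM (lowest, median, highest), and in FD mice at 1.34, 2.24, 1.75, 3.96 and 1.37 CPM. The log2 fold change of 0.22 (SE 0.28) was the largest of the 10, and the interval of the fold, 0.779 to 1.75, was the widest. FD male 2 decided its sign, since the value was -0.08 without this mouse.

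Pdk4 encodes a kinase that limits the entry of pyruvate into oxidative metabolism. It was at 12.1, 15.4 and 16.8 CPM in CD mice (lowest, median, highest) and at 15.2, 15.0, 15.5, 20.2 and 14.9 CPM in FD mice. FD male 2 lay above the other 10 mice, which did not exceed 16.8 CPM. Its log2 fold change was 0.08 (SE 0.10), and it was -0.00298 without FD male 2.

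Cdkn1a encodes the cell cycle inhibitor p21, and Errfi1 an inhibitor of the epidermal growth factor receptor. Cdkn1a was at 4.33, 5.59 and 6.93 CPM in CD mice (lowest, median, highest) and at 7.67, 3.90, 5.18, 6.43 and 5.18 CPM in FD mice, so that both the highest and the lowest mouse belonged to the FD group. Errfi1 was at 41.1, 50.3 and 58.9 CPM in CD mice and at 44.7, 45.6, 52.3, 60.3 and 49.2 CPM in FD mice. The log2 fold changes were 0.02 (SE 0.16) and -0.02 (SE 0.09). For the 6 genes from Tsc22d3 to Errfi1 the adjusted p was 1 (edgeR). Apart from Plin4, the 95% intervals of the members lay between folds of 0.780 and 1.28, so that larger mean differences in either direction were outside them.

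**Figure D2:**
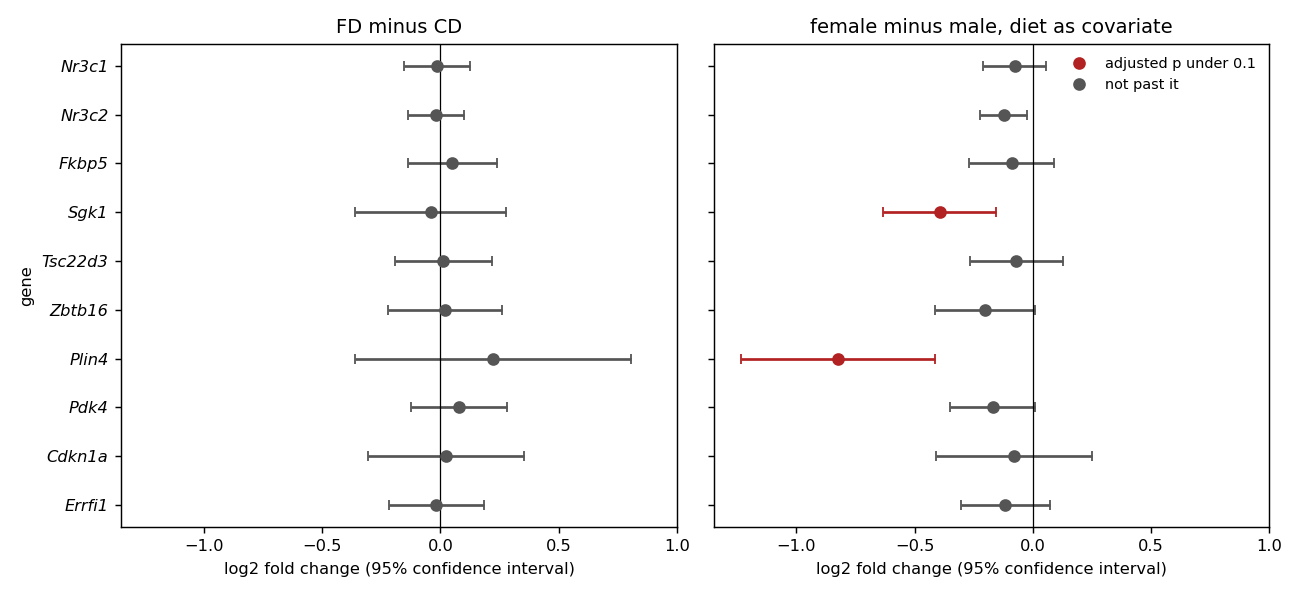
Log2 fold change of each gene with its 95% confidence interval, FD minus CD on the left and female minus male with diet as covariate on the right. Every interval for diet includes 0, and the 2 genes past an adjusted p of 0.1 (red) are Sgk1, at -0.40, and Plin4, at -0.82, in the comparison of the sexes.

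Whether the diet difference was unlike in the 2 sexes was examined through the diet by sex interaction. None of the 10 members and 0 of the 20589 genes passed the threshold (0% of genes; 1 member and 391 genes had an unadjusted p under 0.05, and DESeq2 called 0 genes). The member was Cdkn1a, named here after its values were seen. Its mean in females was 4.83 ± 0.581 CPM (SD, n = 3) in CD and 6.01 ± 1.44 CPM (SD, n = 3) in FD mice. In males it was 6.21 ± 0.638 CPM (SD, n = 3) in CD and 5.17 ± 1.79 CPM (SD, n = 2) in FD mice. The log2 fold change for diet was 0.33 in females alone and -0.30 in males alone. The interaction was 0.63 (SE 0.29, edgeR, adjusted p = 1), and with single mice left out it ranged from 0.29 without FD male 1 and 0.38 without FD female 1 to 1.001 without FD male 2. In fits within a sex, Plin4 in males was the only member with an unadjusted p under 0.05 for diet. Over all genes, 756 of 19232 in males and 440 of 19239 in females had such a p. The log2 fold change of Plin4 was 0.57 (SE 0.26) in males alone and 0.12 (SE 0.26) in females alone (edgeR, adjusted p = 1 in each). The male value rests on 2 FD males, at 2.24 and 3.96 CPM, of which the higher was FD male 2.

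The sexes were compared with diet as a covariate. All 10 members had a lower fitted level in females than in males, as did 10106 of the 20589 genes tested. The 10 directions are not independent, since FD male 2 was the highest mouse for 6 members and CD female 3 the lowest for 5. Of the 10, 2 passed the threshold, Plin4 and Sgk1. Of all genes tested, 633 of 20589 were lower in females at this threshold, which is 3.07%, and 624 were higher, which is 3.03%. The median log2 fold change was -0.12 over the members and 0.00446 over all genes tested. The groups of the sexes overlapped for all 10 members, and 1.78% of all genes had groups that did not overlap.

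Sgk1 was at 114.0, 78.9 and 100.6 CPM in CD males 1, 2 and 3, and at 77.5 and 118.7 CPM in FD males 1 and 2. In females it was at 85.1, 61.5 and 74.4 CPM in CD females 1, 2 and 3, and at 67.4, 68.1 and 88.6 CPM in FD females 1, 2 and 3. The highest 3 mice were males and the lowest 4 were females, with an overlap between 77.5 and 88.6 CPM. The mean was 97.9 ± 19.2 CPM (SD, n = 5) in males and 74.2 ± 10.7 CPM (SD, n = 6) in females. The same order was found within each diet, with 97.8 and 73.7 CPM in CD males and females and 98.1 and 74.7 CPM in FD males and females. The log2 fold change, female minus male, was -0.40 (SE 0.11, interval of the fold 0.645 to 0.897, edgeR, adjusted p = 0.084).

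Plin4 was at 1.65, 2.54 and 2.05 CPM in CD males 1, 2 and 3, and at 2.24 and 3.96 CPM in FD males 1 and 2. In CD females 1, 2 and 3 it was at 1.66, 1.02 and 1.07 CPM, and in FD females 1, 2 and 3 at 1.34, 1.75 and 1.37 CPM. The highest 4 mice were males, and only CD male 1 fell among the females. These levels rest on 12 to 91 counts per mouse. Female minus male, the log2 fold change was -0.82 (SE 0.20, interval of the fold 0.425 to 0.751, edgeR, adjusted p = 0.0641).

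With the filter of at least 10 counts in total, both calls lay close to the threshold. That of Sgk1 was lost (edgeR) without CD male 1 (adjusted p = 0.195), CD female 1 (0.142), CD male 2 (0.111), CD male 3 (0.135), CD female 3 (0.180), FD female 1 (0.125), FD male 2 (0.216) or FD female 3 (0.136). That of Plin4 was lost without CD male 1 (0.157), CD male 2 (0.129), CD female 3 (0.160), FD female 1 (0.104), FD male 2 (0.159) or FD female 3 (0.141). The fold change kept its sign without any single mouse, between -0.49 and -0.29 for Sgk1 and between -1.02 and -0.63 for Plin4. With the share of reads outside genes as covariate, Sgk1 was at -0.63 (edgeR, adjusted p = 0.0939) and Plin4 at -0.76 (adjusted p = 0.589), while the number of genes called fell from 1257 to 9. DESeq2 called Sgk1 (adjusted p = 0.0691) and gave no adjusted p for Plin4. The adjusted p also depended strongly on the count filter, at nearly the same fold changes. Without a filter it was 5.2e-08 for Sgk1 (-0.39) and 0.00029 for Plin4 (-0.82, edgeR).

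**Figure D3:**
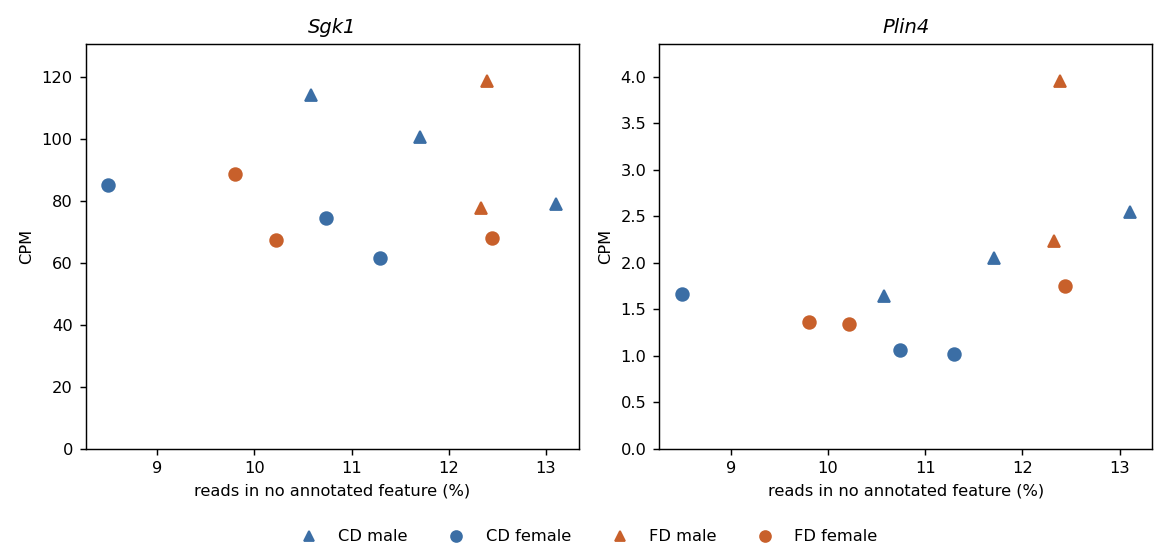
Level of Sgk1 and Plin4 in CPM (y axes, from 0) against the share of reads outside annotated genes in % (x axes, not from 0), with triangles for males, circles for females, blue for CD and orange for FD. Plin4 is highest in FD male 2, at 3.96 CPM, and 4 of the 5 males lie above every female, while male and female points of Sgk1 overlap between 77.5 and 88.6 CPM.

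The other 8 members did not pass the threshold between the sexes. Nr3c2 came closest, with 266.0 ± 12.3 CPM (SD, n = 6) in females and 290.0 ± 12.5 CPM (SD, n = 5) in males and a log2 fold change of -0.12 (SE 0.05, edgeR, adjusted p = 0.146). DESeq2 did call Nr3c2 (adjusted p = 0.0508), as did edgeR without CD female 2 (adjusted p = 0.0528). Zbtb16 had a log2 fold change of -0.20 (SE 0.10) and Pdk4 of -0.17 (SE 0.09), each with an adjusted p of 0.273 or above. Zbtb16 did pass in edgeR without a count filter (adjusted p = 0.0186) and without CD female 2 (-0.31, adjusted p = 0.0248). Nr3c1, Fkbp5, Tsc22d3, Cdkn1a and Errfi1 lay between -0.12 and -0.07, and their intervals all included 0.

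Of 60 cell type markers, 5 passed the threshold between the sexes (8.33%, against 6.11% of all genes tested), in both directions. Over 6 oligodendrocyte markers the median log2 fold change, female minus male, was 0.26, and the summed level was 3979 to 6238 CPM in females and 3885 to 4858 CPM in males. Of 6 astrocyte markers Gfap was higher (0.17, SE 0.05) and Slc1a2 lower (-0.16, SE 0.05) in females, with sums of 3988 to 4607 CPM in females and 4523 to 4768 CPM in males. Of 5 microglial markers C1qa was higher (0.27, SE 0.07), with sums of 222.2 to 249.8 CPM in females and 212.2 to 240.3 CPM in males. Of 6 meningeal fibroblast markers Ogn was lower (-0.52, SE 0.16), with sums of 83.6 to 211.4 CPM in females and 130.1 to 309.0 CPM in males. None of the 8 neuronal, 6 endothelial, 5 mural, 7 choroid plexus, 5 blood and 6 thalamic and striatal markers passed. The part of these differences in the levels of Sgk1 and Plin4 was not tested, and in whole tissue fewer cells of a type and less RNA per cell cannot be told apart. No marker of these lists passed the threshold for diet.

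The responsive genes were then compared across mice. With diet and sex left in, the level of Fkbp5 was related to that of 9 other members over the 11 mice, and 3 of these 9 relations passed an adjusted p of 0.05 by Pearson's r. Fkbp5 and Tsc22d3 gave r = 0.82 (permutation test, p = 0.00269, adjusted p = 0.0242) and Spearman's rho = 0.75 (permutation test, p = 0.00994, adjusted p = 0.0895). Fkbp5 and Sgk1 gave r = 0.75 (permutation test, p = 0.00899, adjusted p = 0.0405) and rho = 0.61 (p = 0.0514, adjusted p = 0.154). Fkbp5 and Errfi1 gave r = 0.71 (permutation test, p = 0.0164, adjusted p = 0.0491) and rho = 0.62 (p = 0.0480, adjusted p = 0.154). None of the rank correlations passed after adjustment.

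Pdk4 followed Fkbp5 less closely, with r = 0.55 (permutation test, p = 0.0769, adjusted p = 0.173; rho = 0.37, p = 0.263). The other members gave r = 0.36 for Plin4, 0.21 for Zbtb16, 0.11 for Nr3c2, -0.02 for Cdkn1a and -0.27 for Nr3c1 (permutation tests, p = 0.279, 0.536, 0.734, 0.958 and 0.425; rho = 0.16, 0.14, 0.05, -0.14 and -0.35 with p = 0.634, 0.693, 0.880, 0.694 and 0.300). Neither receptor had a relation with Fkbp5 that passed, but r for Nr3c1 was -0.40 after the means of diet and sex were removed and -0.62 without the 2 mice named next. After the means of diet and sex were removed, r was 0.82 for Sgk1, 0.81 for Tsc22d3, 0.70 for Errfi1 and 0.48 for Pdk4.

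The 2 mice farthest from the median of Fkbp5 were CD male 1 and FD male 2, and without them r was 0.70 for Tsc22d3, 0.37 for Sgk1, 0.42 for Errfi1 and -0.00236 for Pdk4. The relations with Sgk1, Errfi1 and Pdk4 were thus much weaker without these 2 mice. Because the 2 were chosen by Fkbp5 itself, leaving them out also narrows its range, which can lower r by itself. Without CD male 1 or FD male 2 alone, r was 0.67 and 0.64 for Sgk1, 0.65 and 0.61 for Errfi1, and 0.52 and 0.27 for Pdk4. With single mice left out, Tsc22d3 kept an r of 0.74 to 0.88 but did not pass without CD female 3 (permutation test, adjusted p = 0.0511), FD female 1 (0.0742) or FD male 2 (0.140). Sgk1 passed only without CD male 2, CD male 3 or FD female 3, and Errfi1 only without CD male 2 or FD female 3. In the other cases their adjusted p was 0.0547 to 0.197 (permutation tests), the highest without FD male 2. Pdk4 passed without CD male 2 (r = 0.69, permutation test, adjusted p = 0.0418), and its r was 0.27 without FD male 2. With RLE size factors, another scaling of the libraries, Errfi1 no longer passed (permutation test, adjusted p = 0.0507).

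**Figure D4:**
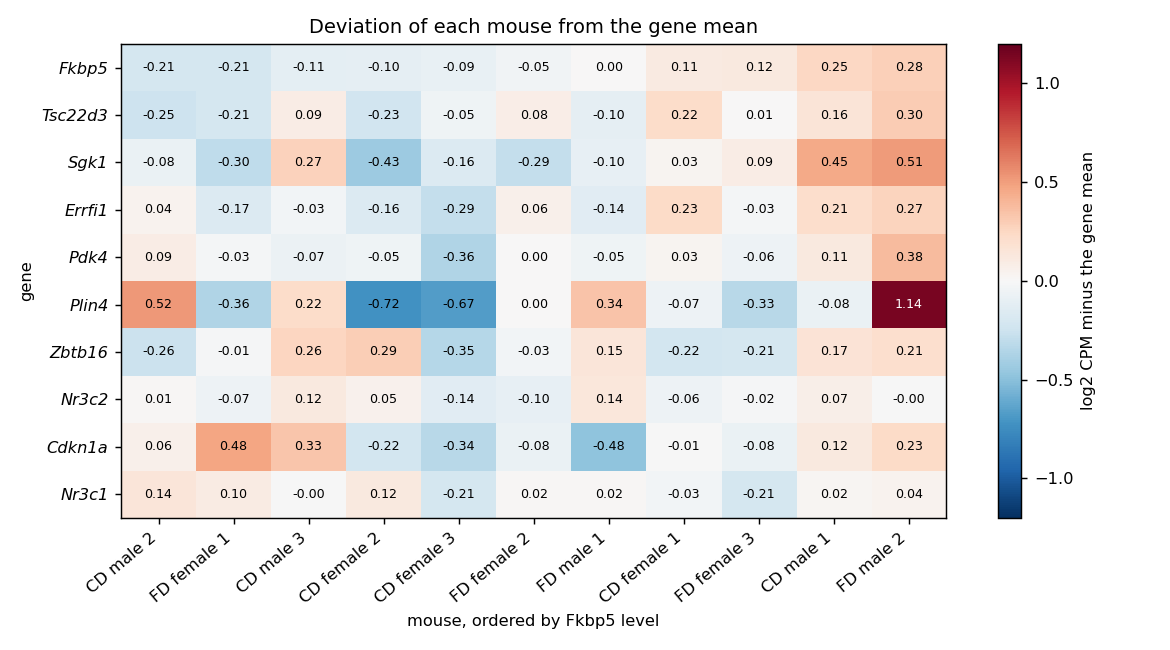
Deviation of log2 CPM from the mean of each gene (colour and printed value) in the 11 mice, ordered from left to right by their Fkbp5 level. Fkbp5, Tsc22d3, Sgk1 and Errfi1 are all above their mean in CD male 1, CD female 1 and FD male 2 and all below it in FD female 1, CD female 2 and CD female 3.

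Single mice were often at the extremes. FD male 2 was the highest of the 11 for Fkbp5, Sgk1, Tsc22d3, Plin4, Pdk4 and Errfi1, 6 of the 10 members, and it was the lowest for none. Over 9973 genes whose mean reached 10 CPM, it was the highest mouse for 11.6% and the lowest for 21.4%. It had 13814620 counts on genes and 12.4% of reads outside genes. CD female 3 was the lowest mouse for Nr3c1, Nr3c2, Zbtb16, Pdk4 and Errfi1, 5 of the 10 members, and the lowest for 17.6% of those genes. CD female 1 was most often the highest mouse over those genes, for 26.2%, and it was the lowest for 13.3%, but among the members it was neither for any. The labels give no time of day or handling for single mice, and the part of such differences was not tested.

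Many other genes followed Fkbp5 more closely than the responsive members did. After removal of diet and sex, 252 of the 9973 genes (2.53%) had a higher r with Fkbp5 than Sgk1, 272 (2.73%) a higher one than Tsc22d3, and 785 (7.87%) a higher one than Errfi1. For the other responsive members the share was 22.0% for Pdk4, 41.9% for Plin4, 50.4% for Zbtb16 and 61.4% for Cdkn1a. The 5 genes most like Fkbp5 were Zkscan1 (r = 0.98), Acat1 (0.98), Ubxn7 (0.98), Sf3a3 (0.97) and Itfg1 (0.96), each over 11 mice. Those most like Nr3c1 were Phf21a (0.93), Kif16b (0.93), Ankrd33b (0.92), Runx1t1 (0.92) and Itga6 (0.92). Those most like Nr3c2 were Pkp4 (0.95), Ppp6r2 (0.95), Rbsn (0.94), Mark1 (0.94) and Akap5 (0.93). These values describe 11 libraries that also differ in depth and in the share of reads outside genes. That share itself had no relation with a member that passed after adjustment over the 10 relations examined. It was largest for Plin4 (r = 0.55, permutation test, p = 0.0767, adjusted p = 0.707; rho = 0.64, p = 0.0398, adjusted p = 0.398; r = 0.65 without the 2 mice farthest from the median share), and it was -0.24 for Fkbp5 and -0.00809 for Sgk1.

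Around the receptors, 7 lists of genes of the same pathway were compared, and no gene of them passed the threshold for diet. Chaperones and co-chaperones, which keep the receptors ready to bind, had 0 of 12 genes past it. Those with the smallest p were Hspa1b (log2 fold change 0.12, SE 0.13), Hsp90ab1 (-0.05, SE 0.05) and Hspa8 (-0.07, SE 0.08). Of 11 coregulators, which link bound receptor to transcription, 0 passed, with Crebbp at 0.08 (SE 0.09), Ncoa2 at 0.06 (SE 0.06) and Nrip1 at 0.07 (SE 0.10). The list medians were -0.02 and 0.05.

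Genes that make, inactivate or transport corticosteroids gave 0 of 8 tested. The first 3 were Abcb1a, a drug exporter of the blood-brain barrier that carries corticosteroids (0.17, SE 0.11), H6pd (0.12, SE 0.10) and Tspo (-0.11, SE 0.13), and Hsd11b2, Cyp11b1 and Hsd3b2 had too few counts to be tested. Of 7 stress peptides and their receptors 0 passed, with Crh, the corticotropin-releasing hormone, at -0.23 (SE 0.20) and Crhr1, its receptor, at -0.07 (SE 0.11). Avp was at 0.15 CPM or below in every mouse and no fold is given for it.

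Among 19 further glucocorticoid-responsive genes 0 passed for diet, with Per1 at -0.11 (SE 0.07), Cebpd at -0.21 (SE 0.14) and Ddit4 at -0.13 (SE 0.09). Of 12 clock genes, many of whose rhythms follow glucocorticoids, 0 passed, and Arntl had the smallest unadjusted p (-0.17, SE 0.08, edgeR, adjusted p = 1), followed by Cry2 (-0.07, SE 0.04) and Per1. Of 8 activity-dependent immediate early genes 0 passed, with a median of -0.20, the lowest of these lists, and with Junb at -0.30 (SE 0.16), Fosb at -0.20 (SE 0.12) and Arc at -0.23 (SE 0.14). With the replicate number as a block, Arc passed for diet (-0.29, edgeR, adjusted p = 0.0544). Their groups overlapped in each case, as they did for all genes named for diet.

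Between the sexes, 13 of the 76 genes tested of these lists passed the threshold, which is 17.1%, against 6.11% of all genes tested (3.03% higher and 3.07% lower in females). Of the 8 immediate early genes, which neurons switch on within minutes of activity, 5 were higher in females: Npas4 (0.74, SE 0.14), Ier2 (0.71, SE 0.14), Junb (0.47, SE 0.11), Fos (0.48, SE 0.14) and Arc (0.36, SE 0.11), with edgeR adjusted p of 0.0489, 0.0544, 0.0641, 0.0903 and 0.0932. Npas4 was at 10.3 ± 2.69 CPM (SD, n = 6) in females and 6.16 ± 0.424 CPM (SD, n = 5) in males, and the groups did not overlap. The list median was 0.42.

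Of the 19 further responsive genes, 4 were higher and 1 was lower in females. The phosphatase gene Dusp1 was at 20.1 ± 2.35 CPM in females and 15.7 ± 1.64 CPM in males (0.39, SE 0.08), and the metallothioneins, which bind metal ions, were at 0.47 (SE 0.10) for Mt2 and 0.45 (SE 0.12) for Mt1. Rhob was at 0.22 (SE 0.07), and the sulfotransferase gene Sult1a1 was lower, at -0.59 (SE 0.15). The 4 genes that were higher moved opposite to Sgk1 and Plin4, and the list median was -0.04.

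Of the 11 coregulators, Nrip1, a corepressor of nuclear receptors, was lower in females (58.9 ± 3.75 against 73.1 ± 5.80 CPM, -0.33, SE 0.05, edgeR, adjusted p = 0.0226). Ep300 (-0.28, SE 0.09, adjusted p = 0.101) and Crebbp (-0.21, SE 0.08, adjusted p = 0.142) did not pass in the edgeR fit used for these calls. Of 17 alternative runs, Ep300 passed in 6 and Crebbp in 4. With single mice left out, their lowest adjusted p was 0.0128 and 0.0347 (edgeR). Of the 8 genes of corticosteroid metabolism and transport, Abcb1a was lower in females (-0.28, SE 0.08), and Tspo (0.30, SE 0.12) and Srd5a1 (0.10, SE 0.09) did not pass. Of the 12 clock genes, Clock was lower (-0.22, SE 0.07), and Per2 (-0.17, SE 0.07) and Nr1d1 (0.13, SE 0.07) did not pass. No chaperone passed in that fit, with Fkbp4 at 0.13 (SE 0.06), Hspa1a at 0.34 (SE 0.16) and Stip1 at 0.11 (SE 0.06). Nor did a stress peptide gene, with Crhr1 at 0.23 (SE 0.09), Pomc at 0.48 (SE 0.26) and Crhbp at 0.08 (SE 0.08). Per2 passed in 2 of the 17 alternative runs, and Nr1d1, Crhr1 and Hspa1a in 1 each.

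The 13 calls depended on single mice, since 1 call was left without CD male 1, CD male 2, CD female 3 or FD male 2, 3 without CD female 1 or FD female 3, 5 without FD female 1, 7 without CD male 3 and 9 without FD male 1, while there were 26 without CD female 2 and 20 without FD female 2.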

How the data were processed

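RNA of whole hippocampus from 11 mice was sequenced by the study as 50 bp single-end reads. Per the submitters' processing notes and the study's methods, reads were trimmed, STAR was used for alignment to mm10 (GRCm38) and featureCounts for counting unique alignments, and the authors deposited raw, unnormalized counts per gene. The annotation release is not given in the sources used here, and the tables end in 5 summary lines of the form HTSeq writes, which were left out of library sizes. Reads aligned to several places are absent from the counts. Gene IDs were matched to GENCODE M21 (94.91% of 38293).

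Counts were analysed with edgeR 4.0.16 (R 4.3.3): genes with at least 10 counts in total, TMM normalization, quasi-likelihood test, Benjamini-Hochberg adjustment over all genes and a threshold of 0.1. Diet was fitted without covariates, sex with diet as covariate, and the interaction with both. Standard errors are the log2 fold change divided by the square root of F. CPM values are TMM-scaled, with a prior count of 2 on the log2 scale. Permutation tests were two-sided, exact or with 100000 resamples. Intervals and floors cover the spread between mice and counting error only. On simulated counts, changes of 0.5 (log2) in genes above 1 CPM were recovered in 80.3% of 66 genes for diet. The share was 83.3% for sex and 22.7% for the interaction, and changes of 1 were recovered in 100%, 100% and 80.6% of 67. Of the calls on those counts, 7% for diet, 7.8% for sex and 14.2% for the interaction were of unchanged genes. Changes were planted in 66 or 67 genes of each size at once, against 14 genes called for diet in the real data. This eases the adjusted threshold on simulated counts, and recovery in the real libraries was not tested.

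The members and the gene lists were chosen with earlier results of these data known. Named were all members, the 3 genes of each other pathway list with the smallest p for diet and for sex, any list gene past the threshold, and the 5 genes most like Nr3c1, Nr3c2 and Fkbp5. Alternatives were DESeq2 1.42.0, RLE size factors, other filters, covariates, fits within a sex and leaving out each mouse in turn. The relations with the share of reads outside genes were added after seeing the data. No libraries of a group agreed within sampling noise (chi-square per degree of freedom 4.39 or above). A single-gene result among the oligodendrocyte markers is not reported here.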

Additional observations from a re-analysis of the deposited data

Results flagged for a closer look

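Pdk4 in FD male 2 was at 20.2 CPM, against 14.9 to 15.5 CPM in the other 4 FD mice, a gap that made up 0.882 of the range of the group and passed Dixon's criterion for 5 values. Among 22 groups of values examined in this way, it was the only such case, and chance alone flags about 1 in 20.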

How the results depend on the processing

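No member passed the threshold for diet or for the interaction under any alternative run, and the sex calls are the ones that changed. The members past the threshold between the sexes were 2, against 3 without a count filter (Zbtb16 added), 1 with the share of reads outside genes as covariate, 0 without the diet covariate and 0 to 4 with single mice left out. Over all genes, the sexes differed in 1257 genes, against 9 with that covariate, 37 without the diet covariate, 2645 without a count filter, 2043 with DESeq2 and 18 to 3244 with single mice left out, and the cause was not tested. For diet the count of 14 became 1 with at least 10 counts in every mouse, 22 with the share of reads outside genes, 25 with the replicate block, 1 in females, 2 in males and 3 to 12 with single mice left out. The interaction gave 0 genes, 10 without a count filter and 0 to 1 with single mice left out. Genes of the pathway lists past the threshold between the sexes were 13, against 22 without a count filter, 1 with the share of reads outside genes, 3 without the diet covariate and 1 to 26 with single mice left out.

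Same-numbered CD and FD mice of a sex had deviations correlated by 0.07 to 0.23, above 0.1 in 4 of 5 pairs, and not every mouse correlated best with its own number, so the numbers were not taken as pairs. With the replicate block, 1 gene of the pathway lists passed for diet, Arc, and the members' values that turned sign were 0.0050 for Nr3c2 and 0.00626 for Sgk1. The log2 ratio of Nr3c2 to Nr3c1 then differed by 0.018 (exact sign-flip test over 5 pairs, p = 0.688, smallest possible 0.0625), by 0.00222 with the share of reads outside genes removed, and by -0.055 to 0.036 with single mice left out.

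Other values near 0 turned sign for diet. In females alone they were 0.013 for Nr3c1, -0.019 for Fkbp5, 0.016 for Sgk1, -0.042 for Tsc22d3, -0.012 for Zbtb16, 0.000283 for Errfi1 and -0.025 for Hspa1b. In males alone they were 0.019 for Nr3c2, 0.00867 for Sgk1, -0.30 for Cdkn1a, 0.011 for Errfi1, -0.018 for H6pd and 0.00022 for Hsp90ab1. Sgk1 was at 0.00382 with sex as covariate and Zbtb16 at -0.011 with the share of reads outside genes.

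With single mice left out, the diet values ranged from -0.053 to 0.036 for Nr3c1, -0.057 to 0.010 for Nr3c2, -0.012 to 0.12 for Fkbp5, -0.19 to 0.058 for Sgk1, -0.061 to 0.080 for Tsc22d3, -0.041 to 0.079 for Zbtb16, -0.078 to 0.40 for Plin4, -0.00298 to 0.11 for Pdk4, -0.13 to 0.14 for Cdkn1a and -0.083 to 0.037 for Errfi1. The sex values ranged from -0.15 to 0.00907 for Tsc22d3 and -0.26 to 0.00584 for Cdkn1a. The interaction ranged from -0.046 to 0.12 for Nr3c1, -0.086 to 0.061 for Nr3c2, -0.26 to 0.34 for Sgk1, -0.34 to 0.065 for Tsc22d3, -0.23 to 0.10 for Zbtb16, -0.26 to 0.16 for Pdk4, 0.29 to 1.001 for Cdkn1a and -0.20 to 0.20 for Errfi1, which was at 0.00959 with the share of reads outside genes.

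Relations of Fkbp5 that passed were 3, against 0 with diet, sex and the share of reads outside genes removed (added after seeing the data; r was then -0.22 for Nr3c2, 0.71 for Sgk1, 0.75 for Tsc22d3 and 0.63 for Errfi1) and 0 to 4 with single mice left out, where r ranged from -0.019 to 0.24 for Nr3c2, -0.20 to 0.27 for Cdkn1a and -0.040 to 0.56 for Plin4. Depth limits Plin4 most, with 12 to 91 counts per mouse.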
